A study of Mus musculus with 6 samples.

Results

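The liver X receptors (LXR), their partner and the best known LXR target genes of macrophages formed a set of 10 genes, among 55335 genes listed in a count table of mouse bone marrow-derived macrophages (BMDMs). They were chosen by symbol: the receptors Nr1h2 (LXRβ) and Nr1h3 (LXRα), their heterodimer partner Rxra, the efflux genes Abca1, Abcg1 and Apoe, the lipoprotein gene Pltp, the lipoprotein uptake regulator Mylip, and the lipid synthesis genes Srebf1 and Lpcat3. All 10 were among the 15687 genes that passed the filter on low counts.

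Total RNA was sequenced in 6 libraries of BMDMs from C57BL/6 mice, 3 from cells given PBS and 3 from cells given lipopolysaccharide (LPS, a bacterial cell wall component sensed by Toll-like receptor 4), each for 1 h. Both groups shared their preparation: marrow of the femur and tibia was grown for 6 days in medium with 10% serum and 20% L929-conditioned medium, the source of the macrophage growth factor. The paper's methods give male mice of 7 to 10 weeks, the dose of LPS for these libraries is not stated in the labels, and no genetic change was present. The labels number the libraries 1 to 3 in each group and call the number a batch, but do not say whether different mice were used, so p-values measure the spread between these samples, which may be technical.

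LXRs are nuclear receptors that bind DNA as heterodimers with retinoid X receptors and are switched on by oxysterols, oxidized forms of cholesterol. When a macrophage holds too much cholesterol, they raise the transporters that export it, the apolipoproteins that accept it, and a ubiquitin ligase that limits lipoprotein uptake. LXRs and Toll-like receptor signalling are known to act on each other in macrophages.

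Libraries held 37787611 to 41516330 counts, and replicates of a group differed by more than sampling noise. Scaling matters here. TMM factors, which correct for a shift in RNA composition, were 1.15 in each PBS library and lay between 0.864 and 0.872 in LPS libraries. Scaled by library size only, the tested genes had a median log2 fold change that moved by -0.40. Values below are CPM (counts scaled to library size) after TMM scaling, and the direction of each of the 10 genes is also given with library size alone. Tnf, used to check the labels, rose from 20.2 ± 1.19 to 2302 ± 49.8 CPM (SD, n = 3). On the log2 scale it rose by 6.83, and by 6.42 with library size alone. The 7 macrophage markers summed to 30219 to 31542 CPM in PBS and 33205 to 33607 CPM in LPS libraries. At an adjusted p under 0.05 by edgeR, 6 were higher and 1 lower, against 32.9% and 34.9% of all tested genes. With library size alone the log2 fold changes of all 7 lay between -0.88 and -0.0058. Markers of other cells were low: neutrophil genes summed to 33.6 to 35.8 and 44.3 to 46.2 CPM (2 of 5 tested higher, Ly6g at most 3 counts), dendritic cell genes to 3.32 to 4.23 and 10.0 to 11.0 CPM (5 of 5 higher), and stromal genes to 9.52 to 10.6 and 12.0 to 14.6 CPM (1 of 4 higher). Mast cell or basophil genes summed to 0.798 to 0.908 and 1.47 to 1.85 CPM (2 of 2 tested higher), B cell genes to at most 1.49 CPM (1 tested gene, higher), T or NK cell genes to at most 0.455, erythroid genes to at most 0.221 and adipocyte genes to at most 0.0919 CPM. These counts too are read against the 32.9% of all tested genes that were higher. With library size alone the 2 higher neutrophil genes stood at -0.0032 and -0.038. The 5 dendritic cell genes (lowest 0.67) and the 1 stromal gene (0.91) stayed called higher. The tested mast cell or basophil and B cell genes stayed above 0 (0.34 to 0.56) but were not called. The part of other cells in the results was not tested, and in bulk RNA fewer cells of a type and less RNA per cell cannot be told apart.

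Promoter windows from RefSeq (GRCm38.p6, the 250 bases before each annotated start) were found for 9 of the 10 genes, in 15 windows. Abcg1 had no entry. The windows of the efflux gene Abca1 and the lipid synthesis gene Srebf1 are shown because they held the longest identical run between any pair of the set, 13 bases, in capitals here. The Abca1 window is chr4:53159896-53160145 and the Srebf1 window, that of the most downstream of 3 starts, is chr11:60210472-60210721, both on the minus strand and printed 5′ to 3′ in the direction of transcription.
Abca1: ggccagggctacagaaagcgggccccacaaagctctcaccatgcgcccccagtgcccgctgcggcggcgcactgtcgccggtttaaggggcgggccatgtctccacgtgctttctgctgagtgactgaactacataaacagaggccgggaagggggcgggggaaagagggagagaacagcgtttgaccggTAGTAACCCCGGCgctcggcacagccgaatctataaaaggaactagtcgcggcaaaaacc
Srebf1: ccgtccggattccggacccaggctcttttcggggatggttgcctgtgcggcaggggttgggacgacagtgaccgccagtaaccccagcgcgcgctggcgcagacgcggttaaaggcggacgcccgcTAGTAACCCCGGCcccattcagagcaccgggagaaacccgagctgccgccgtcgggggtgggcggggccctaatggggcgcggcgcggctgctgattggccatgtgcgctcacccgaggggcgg

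The run lay 60 to 48 bases before the start of Abca1 and 124 to 112 bases before that of Srebf1. It was found by comparing these windows with each other and is a description. Searched on both strands, it stood in 3 of 32851 windows of the same length (0.00913%), the third belonging to Gm39456. Rxra and Pltp shared a different run of the same length, GTCCCCTCCCAGC, which stood in 2 windows (0.00609%). The nuclear receptor half-site AGGTCA matched 1 of the 15 windows, at Rxra, against 14.0% of all windows. Its exact direct repeat with a spacing of 4, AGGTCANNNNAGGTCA, the textbook LXR element, matched 0 of the 15 windows. It matched only 5 of all 32851 windows (0.0152%), so 0 of 15 cannot show that LXR elements are missing. Imperfect repeats were not searched. The kappaB consensus matched 1 window, at Srebf1, against 7.25% of all, and TATAAA matched windows of Abca1, Apoe and Mylip against 12.4% of all. A missing match says only that these letters are not in this window.

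With LPS, Abca1 rose 1.74-fold and Abcg1 fell by 0.62 on the log2 scale, so the main cholesterol exporters moved in opposite directions within 1 h. Mylip, the ligase that limits lipoprotein uptake, also fell. Nr1h2, Apoe, Pltp, Lpcat3 and Srebf1 were higher by at most 1.22-fold after TMM scaling, but their directions, unlike those of Abca1, Abcg1 and Mylip, turned with library size alone. Nr1h3 and Rxra did not pass the test. In all, 6 genes were higher and 2 lower at an adjusted p under 0.05 (edgeR, quasi-likelihood test, Benjamini-Hochberg over the 15687 tested genes), where 32.9% of tested genes were higher, 34.9% lower and 67.7% called in either direction. The median log2 fold change of the 10 genes was 0.15, beside -0.01 over all tested genes. None of the 10 was called past 2-fold by edgeR, where 10.5% of tested genes were higher, 10.4% lower and 20.9% in either direction past it. By DESeq2 and by limma voom the count past 2-fold was also 0, and 8 of the 10 had an unadjusted p under 0.05 with each of these 3 tools. The groups did not overlap for 7 of the 10, 5 with LPS above and 2 with LPS below, and 33.9%, 36.6% and, in either direction, 70.5% of tested genes had such groups. No test of the 10 genes as a set was run, and these counts are a description beside the shares of all genes.

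**Figure D1:**
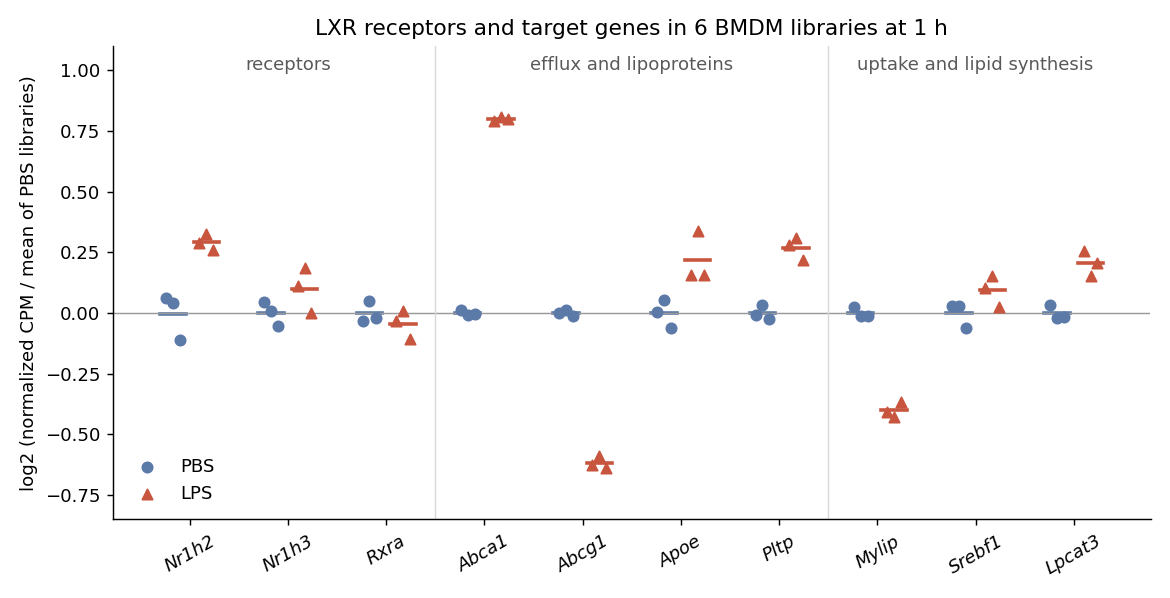
Each point is 1 library's normalized CPM of a gene relative to the mean of the 3 PBS libraries, on a log2 scale, after TMM scaling; bars are group means. LPS libraries (triangles) of Abca1 sat near 0.80 and those of Abcg1 near -0.62, both clear of the PBS libraries (circles), while Nr1h3, Rxra and Srebf1 overlapped. With library size alone Nr1h2, Nr1h3, Apoe, Pltp, Srebf1 and Lpcat3 would lie below 0.

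Among the receptors, Nr1h2, which encodes the widely expressed LXRβ (ENSMUSG00000060601, chr7:44549616-44553951, minus strand), stood at 52.7, 52.0 and 46.7 CPM in the PBS libraries and at 61.7, 63.2 and 60.4 CPM in the LPS libraries. All 3 LPS libraries lay above all 3 PBS libraries. Its log2 fold change was 0.29 (SE 0.05, adjusted p = 2.16e-05 by edgeR), and it was -0.11 with library size alone. Its raw counts were 2153 to 2511 with PBS and 2057 to 2071 with LPS, but the LPS libraries also held fewer counts in total. The direction rests on the scaling, as the values after TMM scaling and with library size alone show.

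Nr1h3, the gene of LXRα, found mainly in liver, fat, gut and macrophages (ENSMUSG00000002108, chr2:91184061-91202834, minus strand), had 20.0, 19.4 and 18.6 CPM with PBS and 20.9, 22.0 and 19.3 CPM with LPS. The groups overlapped, since LPS replicate 3 lay below PBS replicates 1 and 2. The log2 fold change of 0.10 (SE 0.06, adjusted p = 0.138 by edgeR) did not pass the test, and it ranged from 0.06 without LPS replicate 2 (adjusted p = 0.439 by edgeR) to 0.15 without LPS replicate 3 (0.0463). It was -0.041 with upper quartile scaling and -0.30 with library size alone. The exons of Nr1h3 share 34 bases with Gm13783 on the same strand, which held 3 to 11 counts.

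Rxra, the retinoid X receptor that pairs with LXRs and with several other nuclear receptors (ENSMUSG00000015846, chr2:27676440-27762957, plus strand), had 66.3, 70.1 and 66.8 CPM with PBS and 66.1, 68.1 and 62.9 CPM with LPS. The ranges overlapped. Its log2 fold change was -0.04 (SE 0.04, adjusted p = 0.344 by edgeR) after TMM scaling, and -0.19 and -0.45 with upper quartile scaling and library size alone, both called lower.

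The genes of cholesterol export held the largest differences of the set in both directions. Abca1, the transporter that loads cholesterol and phospholipid onto lipid-poor apolipoprotein A-I (ENSMUSG00000015243, chr4:53030787-53159895, minus strand, 50 exons in its longest transcript), had 56569, 52987 and 54234 counts with PBS and 68519, 67242 and 69791 with LPS. Of the 10 genes it was the only one whose raw counts were higher with LPS in every library. Scaled, it stood at 1188, 1173 and 1175 CPM with PBS and at 2042, 2060 and 2051 CPM with LPS. The group means of 1179 and 2051 CPM lay much further apart than the SDs of 8.13 and 9.22 CPM. The log2 fold change was 0.80 (SE 0.03, adjusted p = 9.70e-14 by edgeR), 0.39 with library size alone, and between 0.78 and 0.81 in the 3 same-numbered pairs. It exceeded the log2 fold change of 87.4% of tested genes. The genes whose log2 CPM followed Abca1 most closely over the 6 libraries, by Euclidean distance of centred values, were Pde7b (0.0398), Larp4b (0.0443) and Fam117b (0.0455), among 270 genes within a distance of 0.2.

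Abcg1, which exports cholesterol to mature high-density lipoprotein (ENSMUSG00000024030, chr17:31057675-31117988, plus strand), had 23323, 22287 and 22417 counts with PBS and 10649, 10635 and 10698 with LPS. In scaled values these were 490, 493 and 486 CPM against 317, 326 and 314 CPM. Every LPS library lay below every PBS library, by raw counts and by CPM. This gave a log2 fold change of -0.62 (SE 0.03, adjusted p = 7.24e-12 by edgeR), a level 1.53-fold lower, and it reached -1.02 with library size alone, past 2-fold. The 3 same-numbered pairs gave -0.63, -0.60 and -0.63. Nearest to Abcg1 in pattern were Ripk1 (distance 0.0327), Tmem229b (0.0349) and Rbm43 (0.0377), among 482 genes within 0.2.

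A ratio of counts taken inside 1 library does not depend on scaling between libraries. Abcg1 counts per Abca1 count were 0.412, 0.421 and 0.413 with PBS and 0.155, 0.158 and 0.153 with LPS. The ratio was thus 2.67-fold lower with LPS, with a log2 difference of -1.42 (SE 0.02), and the groups did not overlap. An exact two-sided permutation test gave p = 0.1, the smallest that 3 against 3 libraries allow, and 0.1 after adjustment over the 4 ratios tested. Per kilobase of exon, Abca1 exceeded Abcg1 by 1.70-fold with PBS and by 4.53-fold with LPS.

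**Figure D2:**
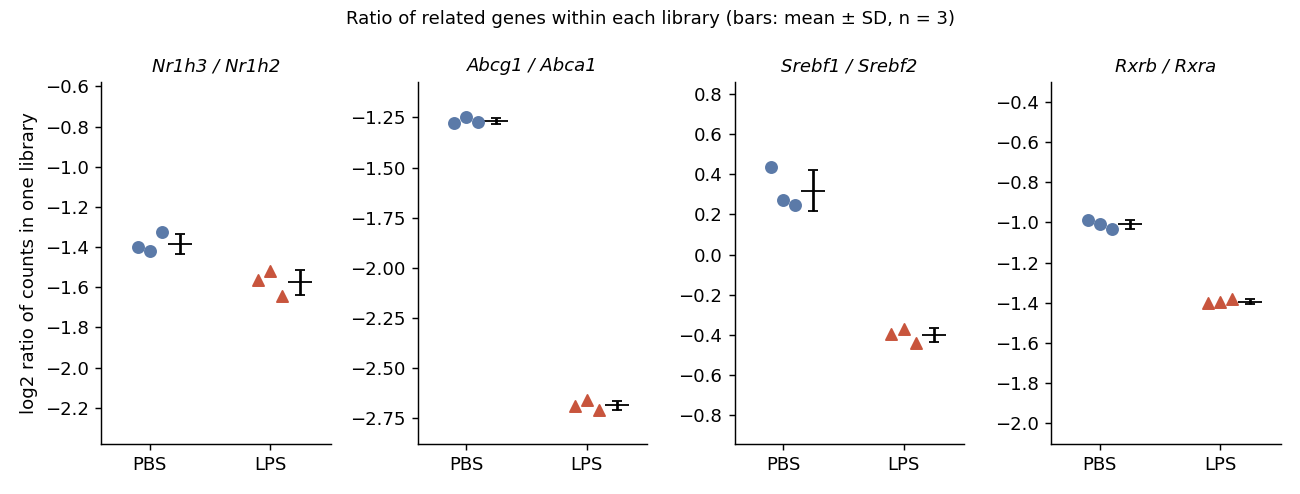
Log2 ratio of the counts of related genes within each library; points are libraries and black marks are the mean ± SD of 3 libraries, on a separate axis range per panel with the same length in log2 units. The ratio of Abcg1 to Abca1 moved from -1.27 ± 0.0157 to -2.68 ± 0.0226, and the ratios of Nr1h3 to Nr1h2, Srebf1 to Srebf2 and Rxrb to Rxra were also lower in all LPS libraries.

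Apoe, the apolipoprotein that macrophages secrete as an acceptor of cholesterol (ENSMUSG00000002985, chr7:19696109-19699188, minus strand), was the most abundant of the set. It took 0.955%, 0.992% and 0.913% of all counts in the PBS libraries and 0.805%, 0.905% and 0.806% in the LPS libraries. Scaled, it stood at 8327, 8605 and 7941 CPM with PBS and at 9246, 10475 and 9252 CPM with LPS, where replicate 2 was the highest. The scaled groups did not overlap, with LPS above, whereas the share of counts was lower in each LPS library than in every PBS library. For Apoe the log2 fold change was 0.22 (SE 0.04, adjusted p = 1.73e-04 by edgeR), 0.08 and not called with upper quartile scaling, and -0.19 with library size alone. Apoc1 and Apoc2, apolipoprotein genes of the same cluster, held few counts, as given further on.

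Pltp, the phospholipid transfer protein that remodels lipoproteins (ENSMUSG00000017754, chr2:164839518-164857711, minus strand), had 1356, 1397 and 1340 CPM with PBS and 1657, 1690 and 1588 CPM with LPS. All LPS libraries were above all PBS libraries. The log2 fold change was 0.27 (SE 0.03, adjusted p = 1.79e-06 by edgeR) and turned to -0.14 with library size alone. Its exons share 495 bases with Ctsa on the opposite strand, a gene with a log2 fold change of 0.06 (SE 0.03). The strand setting of the counting is not stated, so reads from the shared stretch could be split or lost.

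**Figure D3:**
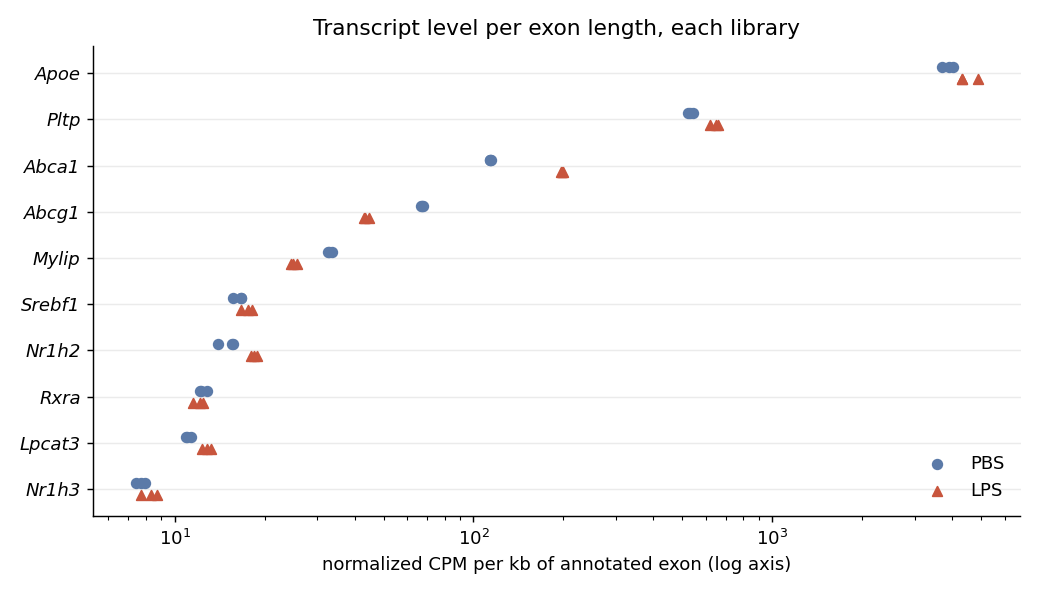
Level of each gene in each library as normalized CPM per kilobase of annotated exon, on a log axis, with 3 PBS (circles) and 3 LPS (triangles) libraries. Levels ran from Apoe, 3878 on average with PBS and 4517 with LPS, down to Nr1h3, 7.68 and 8.25.

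Per kilobase of exon the order with PBS was Apoe (mean 3878), Pltp (533), Abca1 (114), Abcg1 (67.1), Mylip (33.0), Srebf1 (16.4), Nr1h2 (15.0), Rxra (12.4), Lpcat3 (11.1) and Nr1h3 (7.68). Only the neighbours Srebf1 and Nr1h2 overlapped in range. With LPS, Nr1h2 (18.4) stood above Srebf1 (17.5) and Lpcat3 (12.8) above Rxra (12.0), and both of these pairs overlapped. Apoe was 7.28-fold above Pltp with PBS and 7.03-fold with LPS. With the longest transcript in place of the exon union, 6 of the 20 ranks moved, all between the fifth and ninth places. Among the receptors, LXRβ transcripts were above LXRα transcripts in every library, and Nr1h3 was the lowest of the set in both groups.

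The ratio of Nr1h3 to Nr1h2 counts was 0.378, 0.374 and 0.399 with PBS and 0.339, 0.348 and 0.320 with LPS. The LPS libraries all lay below the PBS libraries. The log2 difference was -0.19 (SE 0.05) with an exact permutation p of 0.1. For the partner, Rxrb counts per Rxra count went from 0.504, 0.498 and 0.489 to 0.378, 0.379 and 0.384, a log2 difference of -0.38 (SE 0.01) with the same exact p of 0.1. Rxrb itself, a second retinoid X receptor, had a log2 fold change of -0.43 (SE 0.05, adjusted p = 3.78e-07 by edgeR) and stayed lower with library size alone (-0.83).

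Mylip encodes IDOL, the LXR-induced ubiquitin ligase that sends lipoprotein receptors to the lysosome (ENSMUSG00000038175, chr13:45389742-45412022, plus strand). It had 5177, 4782 and 4880 counts with PBS and 2701, 2587 and 2823 with LPS. In scaled values it went from 109, 106 and 106 to 80.5, 79.3 and 82.9 CPM, with no overlap. For Mylip the log2 fold change was -0.40 (SE 0.03, adjusted p = 1.03e-08 by edgeR), a level 1.32-fold lower, and -0.81 with library size alone. Of the transcripts of its known protein targets, Lrp8 rose by a log2 fold change of 1.13 (SE 0.11), and by 0.73 with library size alone. Vldlr, singled out after its values were seen, held 17 to 32 counts per library and did not pass the test (0.11, adjusted p = 0.734 by edgeR, and -0.29 with library size alone).

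Srebf1, the transcription factor gene through which LXR raises fatty acid synthesis (ENSMUSG00000020538, chr11:60199089-60222581, minus strand), had 94.1, 94.2 and 88.5 CPM with PBS and 99.1, 103 and 93.8 CPM with LPS. The groups overlapped, as LPS replicate 3 lay just below PBS replicates 1 and 2. The log2 fold change of 0.09 (SE 0.04) was called with an adjusted p of 0.0454 by edgeR, but it was -0.048 with upper quartile scaling and -0.31 with library size alone. The call was also lost without LPS replicate 1 (adjusted p = 0.128 by edgeR), without LPS replicate 2 (0.182) and without PBS replicate 3 (0.205), as well as with no filter on low counts (0.144) and with a minimum of 10 counts in every library (0.0925). Srebf1 counts per count of Srebf2, the related gene for the cholesterol-synthesis regulator, were 1.35, 1.21 and 1.19 with PBS and 0.760, 0.773 and 0.737 with LPS. All LPS libraries lay below all PBS libraries in this ratio, which does not depend on the scaling, with a log2 difference of -0.72 (SE 0.06) and an exact permutation p of 0.1. Srebf2 itself had a log2 fold change of 0.81 (SE 0.04), and 0.41 with library size alone. Exons of Srebf1 share 109 bases with Rai1 on the opposite strand (log2 fold change -0.24, SE 0.07).

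Lpcat3, which puts polyunsaturated fatty acids into membrane phospholipids (ENSMUSG00000004270, chr6:124663027-124704418, plus strand), had 37.1, 35.8 and 35.9 CPM with PBS and 43.3, 40.4 and 41.8 CPM with LPS. The LPS libraries were all above the PBS libraries. Its log2 fold change was 0.21 (SE 0.04, adjusted p = 4.20e-04 by edgeR), 0.06 and not called with upper quartile scaling, and -0.20 with library size alone. It shares 334 exonic bases with Emg1 on the opposite strand (log2 fold change -0.26, SE 0.05).

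A change of scaling moves every gene by nearly the same amount, so distances from the median of all tested genes are alike under the 4 scalings by construction. Abca1 lay 0.81 above that median on the log2 scale, Nr1h2 0.30, Pltp 0.28, Apoe 0.23, Lpcat3 0.22 and both Nr1h3 and Srebf1 0.11. Rxra lay at -0.03, Mylip at -0.39 and Abcg1 between -0.61 and -0.60.

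**Figure D4:**
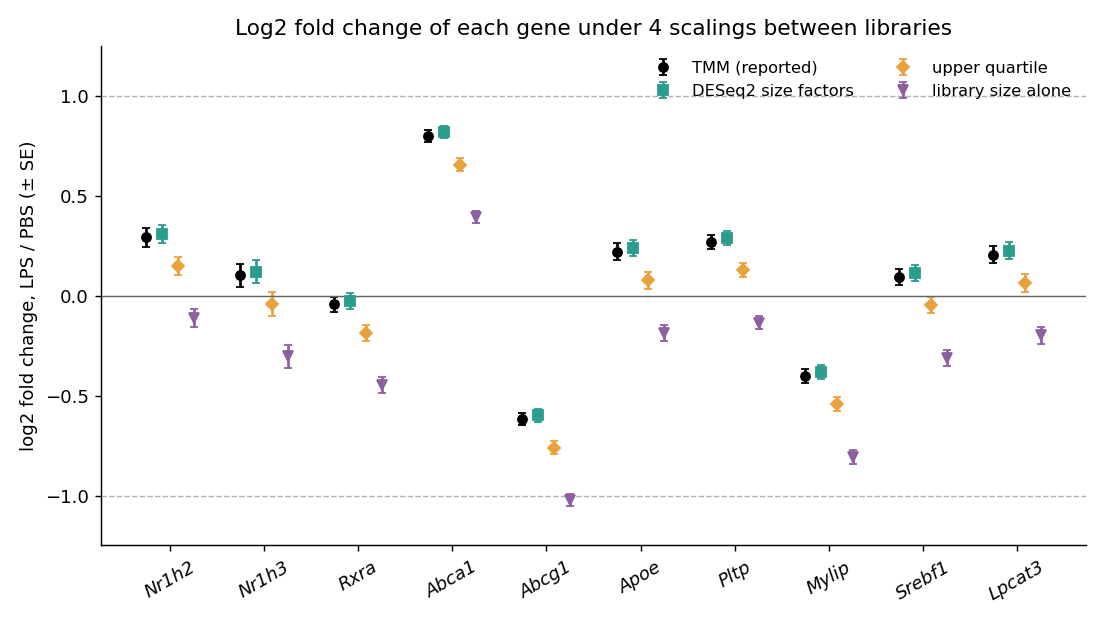
Log2 fold change with its SE for each gene under 4 ways of scaling the libraries; dashed lines mark 2-fold. Abca1 stayed above 0 and Abcg1 and Mylip below 0 under all 4 scalings, while with library size alone Nr1h2, Nr1h3, Apoe, Pltp, Srebf1 and Lpcat3 fell below 0 and Abcg1 passed 2-fold at -1.02.

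The same pathway was followed in 7 further lists of genes, each read against all tested genes. Of these 32.9% were higher and 34.9% lower, and with library size alone 15.0% were higher and 65.9% lower. Of 11 tested LXR partners and cofactors, 6 were higher and 5 lower, against the 32.9% and 34.9% of all genes (median 0.12, beside -0.01). This turned to 1 higher and 9 lower with library size alone, against 15.0% and 65.9%. The twelfth gene, Rxrg, named after its values were seen, held at most 1 count in any library.

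Of 14 tested genes among 17 other LXR targets, 7 were higher and 3 lower (median 0.09), against 32.9% and 34.9% of all genes. By library size alone 4 were higher and 8 lower, against 15.0% and 65.9%. Past 2-fold, where 10.5% of all genes were higher, were Tgm2, which encodes transglutaminase 2, from 49.3 ± 1.24 to 856 ± 21.8 CPM (log2 fold change 4.12, SE 0.04), Ttc39b, which promotes LXR degradation (1.59, SE 0.05), and Elovl5, a fatty acid elongase (1.47, SE 0.04). These stayed above 1.06 with library size alone. Scd2, Fads1 and Cd5l were the lower genes, and they were named, like Apoc1 and Apoc2, after their values were seen. Apoc2 held 6, 11 and 4 counts with PBS and 0 in each LPS library, which allows up to 3 counts there, and Apoc1 held 19 to 45 counts and did not pass the test.

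All 8 genes of lipoprotein and sterol uptake receptors were tested, and 6 were higher, against 32.9% of all genes, while the other two did not pass the test (median 0.69). With library size alone 5 were higher and 2 lower, against 15.0% and 65.9%. Scarb1, a receptor for high-density lipoprotein named after its values were seen, did not pass the test (log2 fold change -0.08, SE 0.04, adjusted p = 0.066 by edgeR). Its groups did not overlap, and it was called lower with a replicate block and with library size alone (-0.49). In the list, 1 receptor was lower too with upper quartile scaling, no filter, a minimum of 10 counts in every library or without LPS replicate 1. Olr1, the receptor LOX-1 for oxidized LDL, went from 3, 2 and 3 counts to 3884, 3883 and 4160. The ratio of summed counts, scaled, was 2067, with an exact 95% interval from 1048 to 4788 that covers counting error only. Olr1 was higher with library size alone too. Lrp8, a receptor for apolipoprotein E, went from 2.93 ± 0.415 to 6.43 ± 0.251 CPM.

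Of 8 genes for cholesterol storage and lysosomal export, 2 were higher and 4 lower (median -0.05), against 32.9% and 34.9% of all genes. By library size alone 0 were higher and 8 lower, against 15.0% and 65.9%. Stard3, a lysosomal cholesterol transporter, was the lowest (log2 fold change -0.61, SE 0.04, adjusted p = 2.06e-10 by edgeR), and stayed lower with library size alone at -1.01. Of 6 enzymes that make or clear oxysterols, 2 were tested, 1 higher and 1 lower, against 32.9% and 34.9% of all genes. With library size alone 1 was also higher and 1 lower, against 15.0% and 65.9%. Ch25h, which makes 25-hydroxycholesterol, held 50, 30 and 45 counts with PBS and 660, 645 and 584 with LPS (log2 fold change 4.39, SE 0.12, and 3.98 with library size alone). Cyp27a1, which makes 27-hydroxycholesterol and was named after its values were seen, was lower (-0.25, SE 0.04, and -0.65 with library size alone). The other 4 held at most 14 counts.

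Of 6 genes of SREBP processing, 5 were higher and 1 did not pass the test (median 0.31), against 32.9% of all genes higher. With library size alone 2 were higher and 3 lower, against 15.0% and 65.9%. Insig1, which holds SREBP precursors in the endoplasmic reticulum, went from 103 ± 0.585 to 211 ± 2.41 CPM (log2 fold change 1.04, SE 0.03), and 0.63 with library size alone. Of 3 tested PPAR genes, Ppard was higher (1.54, SE 0.07), Ppargc1b lower (-0.66, SE 0.13), and Pparg did not pass the test (-0.02, adjusted p = 0.765 by edgeR). Ppargc1b and Pparg were named after their values were seen. Of all tested genes 32.9% were higher and 34.9% lower. Library size alone gave 1 higher and 2 lower, against 15.0% and 65.9%, with Ppard at 1.13, Ppargc1b at -1.06 and Pparg at -0.42.

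**Figure D5:**
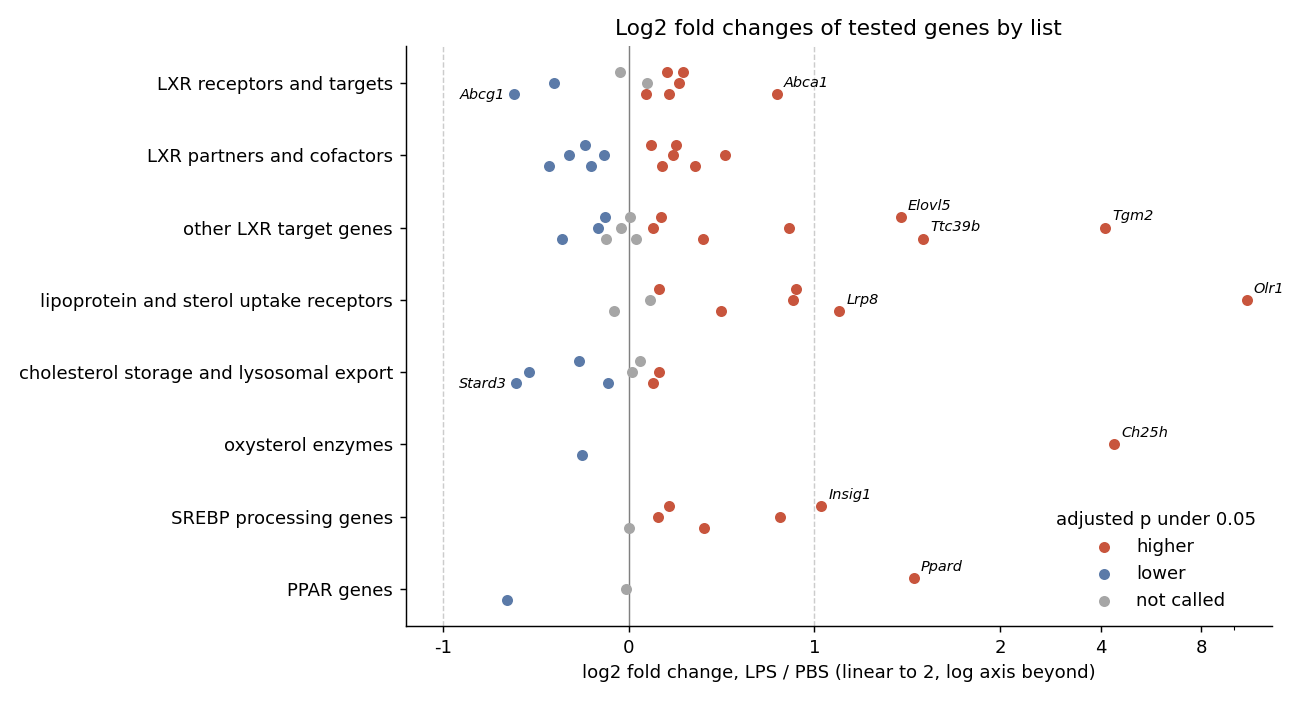
Log2 fold changes after TMM scaling of the tested genes of the LXR set and of 7 further lists; each point is a gene, coloured by its call at an adjusted p under 0.05 by edgeR, and the axis is linear to 2 and logarithmic beyond. Abca1 and Abcg1 stand at the ends of the LXR set at 0.80 and -0.62, inside the dashed 2-fold lines, while Tgm2 (4.12) and Ch25h (4.39) lie far outside them; the split of small changes about 0 moves with the scaling, by -0.40 with library size alone.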

How the data were processed

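Total RNA of 3 PBS and 3 LPS libraries of BMDMs was sequenced after 1 h. Per the paper and the submitters' processing notes, the authors prepared libraries with a TruSeq Stranded Total RNA Globin kit, checked reads with FastQC 0.11.9, aligned them to GRCm38 with HISAT2 2.1.0, used SAMtools 1.17 and counted reads per gene with featureCounts 2.0.0. The deposited values are these raw counts, not normalized. The annotation release, the strand setting and the handling of multimapping reads are not given in the sources used here. Of 55335 gene identifiers, 55154 matched GENCODE M21 without version, which gave symbols, coordinates and exon lengths.

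From the counts, LPS and PBS were compared in R 4.3.3 with edgeR 4.0.16 (filterByExpr, 15687 genes, TMM scaling, quasi-likelihood test, Benjamini-Hochberg adjustment over all tested genes). Calls used an adjusted p under 0.05, and 2-fold calls also an absolute log2 fold change above 1. DESeq2 1.42.0, limma 3.58.1 voom, other scalings, other filters, leaving out each library and a replicate block were alternatives. Within-library ratios added 0.5 to each count and used exact two-sided permutation tests. Levels per kilobase used the union of annotated exons. A floor of 3 counts was used, and floors and intervals cover counting error only.

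The labels call replicate numbers batches, so the numbers may pair the libraries, but the labels do not say that they do. After subtracting group means, libraries of the same number correlated across genes at -0.0139, 0.0822 and 0.0387 (numbers 1, 2 and 3). The mean correlations with libraries of other numbers were 0.0072, -0.042 and -0.019. The model without the block was used for the reported values.

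On simulated counts, edgeR recovered 134 of 200 genes changed by a log2 of 0.5 among 15206 tested genes, and 192 of 200 changed by 1.5 among 15221. Only these 200 genes were changed, up and down in equal number, with no shift in RNA composition. The simulation therefore does not test the scaling on which the direction of small changes rests here.

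The genes and lists were chosen with earlier results of these data known. Genes named beside the 10 were those past both thresholds in each list, at most 4, or else the called gene with the largest absolute log2 fold change, the 3 genes nearest in pattern to the highest and lowest of the 10, and Tnf. Some genes that this rule names are not reported here. Genes in a tested ratio or overlapping one of the 10 are given too, and others are said to be chosen after their values were seen. Promoter windows are from RefSeq, GRCm38.p6. The kappaB consensus was searched by its usual degenerate letters on both strands.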

Additional observations from a re-analysis of the deposited data

How the results depend on the processing

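Of 140 alternative log2 fold changes of the 10 genes, 122 kept their direction and their side of the threshold, 7 lost the call, 3 gained one and 8 turned. The turned values were, with library size alone, Nr1h2 -0.11, Nr1h3 -0.30, Apoe -0.19, Srebf1 -0.31, Lpcat3 -0.20 and Pltp -0.14, and, with upper quartile scaling, Nr1h3 -0.041 and Srebf1 -0.048. These scalings moved the median of all genes by -0.40 and -0.14, and the share of 2-fold calls that were higher from 50.4% to 29.0% and 42.6%, by their construction. With library size alone 2354 genes were higher and 10337 lower, against 5159 and 5467 of the 15687 tested. With upper quartile scaling 3704 of all tested genes were higher and 7269 lower, and the counts below are read against these. With library size alone 1 of the 10 genes was higher, 9 lower and 1 lower past 2-fold, and with upper quartile scaling 3 were higher and 3 lower. In the lists, library size alone gave 1 higher and 9 lower partners and cofactors, 4 higher and 8 lower other targets, 2 lower uptake receptors, 0 higher and 8 lower storage genes, 2 higher and 3 lower SREBP genes and 2 lower PPAR genes. Upper quartile scaling gave 5 lower other targets, 1 lower uptake receptor, 0 higher storage genes, 3 higher and 1 lower SREBP genes and 2 lower PPAR genes. No filter gave 1 lower uptake receptor and 2 higher oxysterol enzymes, and a minimum of 10 counts in every library gave 1 lower uptake receptor. Leaving out each library in turn gave 5 to 7 of the 10 genes higher, 0 to 1 lower uptake receptor (1 without LPS replicate 1) and 1 to 2 higher oxysterol enzymes (2 without LPS replicate 3 or any PBS replicate). For the changes from filters and left-out libraries the cause was not tested. Under the replicate block, the 10 genes kept their calls (6 higher and 2 lower), 1 uptake receptor was lower, no other count of calls in the lists moved by over 1.5 times, and the paired ratios kept their direction, each with an exact sign-flip permutation p of 0.25, the smallest that 3 pairs allow. Of the 10 genes, Nr1h3 held the fewest counts (658 in LPS replicate 3) and had the largest SE (0.06, against 0.03 for Abca1), and the part of depth in its missing call was not tested.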
